A study of Mus musculus with 12 samples.

Results

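Splicing factor and hnRNP genes were taken as the protein-coding genes of the RefSeq annotation (GRCm38.p6, the mm10 build) whose symbols belong to 8 families, namely Srsf, Hnrnp, Sf3a or Sf3b, Snrp, Prpf, U2af, Rbm and Lsm. The rule found 115 genes among 21887 protein-coding genes on the autosomes, X and Y. There were 36 Rbm, 20 Hnrnp, 13 Prpf, 12 Snrp, 11 Srsf, 11 Lsm, 9 Sf3 and 3 U2af genes. The rule read only symbols, so several Rbm and Lsm members whose products act outside the spliceosome are included, and genes spelled Snrnp are not.

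Chromatin immunoprecipitation with sequencing located the histone H4 acetyltransferase MOF (product of Kat8) in C57BL/6 mouse bone marrow cells of the genotypes wild type and Mof -/+. Haematopoietic stem cells (HSC, sorted as LSK+ CD34- Flt3-, 15000 cells) and megakaryocyte-erythroid progenitors (MEP, sorted as lineage-, Sca-1-, cKit+, CD34-, IL7r-, CD16/32-, 30000 cells) came from bones pooled before sorting. GATA1 was located in HPC7, a wild-type haematopoietic progenitor line kept in stem cell factor at 10 ng/mL. The labels list fetal calf serum at 10% for HPC7 and at 2% for the HSC and MEP samples. The labels do not say how the Mof allele was made, how old the animals were or how many were used. Each group was 1 library, with 1876 peaks for MOF in wild-type HSC, 898 in wild-type MEP, 338 in Mof -/+ HSC, 64 in Mof -/+ MEP and 477 GATA1 intervals. Peak lists hold no expression values, so the cell labels were not checked against marker genes. No difference below has a replicate check, no test was made, and sequencing depth is unknown.

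Splicing removes introns from pre-mRNA in steps carried out by small nuclear ribonucleoproteins (snRNPs). The U1 and U2 snRNPs mark the 5′ splice site and the branch point, the U4/U6.U5 tri-snRNP then joins, and the Prp19 complex accompanies catalysis. SR proteins, encoded by the Srsf genes, mostly bind exonic sequences and promote splice site choice, while hnRNP proteins coat nascent RNA and often repress it. Genes of this machinery, among them SF3B1, SRSF2 and U2AF1, are recurrently mutated in human myeloid disorders that arise in stem cells.

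In wild-type cells MOF peaks lay near the starts or ends of a larger share of these genes than of all protein-coding genes. SR protein genes had the highest share of the 8 families in both cell types. A gene was counted if the midpoint of a peak lay within 5 kb of its annotated start or end. In wild-type HSC 28 of the 115 genes were counted (24.3%, 95% Wilson interval 17.4 to 32.9), where 8.52% of all protein-coding genes were. In wild-type MEP 11 were counted (9.57%, 5.43 to 16.3), against 3.4% of all protein-coding genes. The member share was 2.86 times the background in HSC and 2.81 times in MEP. With gene starts only, 25 of 97 members of known strand were counted in HSC (25.8%, background 7.56%). In MEP 8 of 97 were (8.25%, background 2.84%). The intervals cover counting error only, and genes that share a peak are not independent.

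The promoters of 8 of the genes are given because they carried a wild-type peak within 1 kb of a RefSeq start. The first 6 were counted in both HSC and MEP, and the last pair had the highest values of the remainder. Each sequence is the 250 bases before the start, from RefSeq (GRCm38.p6), written 5′ to 3′ on the strand of the gene. Capitals mark matches on either strand to 9 short motifs that are spelled out with the promoter results.
Srsf2, chr11:116853095-116853344, minus strand: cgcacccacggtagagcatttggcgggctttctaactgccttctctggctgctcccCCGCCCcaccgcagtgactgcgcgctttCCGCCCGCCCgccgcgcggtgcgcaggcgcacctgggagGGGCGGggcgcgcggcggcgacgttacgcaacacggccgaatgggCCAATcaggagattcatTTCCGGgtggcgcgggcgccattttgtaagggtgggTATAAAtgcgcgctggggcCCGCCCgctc
Srsf3, chr17:29032410-29032659, plus strand: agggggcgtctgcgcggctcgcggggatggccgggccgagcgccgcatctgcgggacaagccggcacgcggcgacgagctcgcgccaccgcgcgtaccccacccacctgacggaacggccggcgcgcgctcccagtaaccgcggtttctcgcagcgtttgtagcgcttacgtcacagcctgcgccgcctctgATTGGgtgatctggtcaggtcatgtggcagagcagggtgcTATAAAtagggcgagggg
Hnrnph3, chr10:63023850-63024099, minus strand: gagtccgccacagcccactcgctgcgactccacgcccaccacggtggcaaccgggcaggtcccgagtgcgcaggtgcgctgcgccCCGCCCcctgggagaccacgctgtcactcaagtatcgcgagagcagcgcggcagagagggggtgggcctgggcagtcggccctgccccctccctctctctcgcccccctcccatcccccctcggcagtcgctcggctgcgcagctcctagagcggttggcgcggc
Srsf7, chr17:80207306-80207555, minus strand: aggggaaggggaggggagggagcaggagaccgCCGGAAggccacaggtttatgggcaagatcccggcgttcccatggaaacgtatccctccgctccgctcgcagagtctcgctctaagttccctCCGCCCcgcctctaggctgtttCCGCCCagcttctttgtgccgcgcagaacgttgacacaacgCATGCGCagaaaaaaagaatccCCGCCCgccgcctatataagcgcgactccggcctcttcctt
Hnrnpd, chr5:99978939-99979188, minus strand: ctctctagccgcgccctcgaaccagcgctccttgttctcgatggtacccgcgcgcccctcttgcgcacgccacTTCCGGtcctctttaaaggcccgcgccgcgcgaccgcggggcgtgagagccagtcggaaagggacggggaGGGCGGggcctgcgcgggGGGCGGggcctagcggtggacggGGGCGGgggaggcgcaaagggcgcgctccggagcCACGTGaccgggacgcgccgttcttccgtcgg
Srsf1, chr11:88047123-88047372, plus strand: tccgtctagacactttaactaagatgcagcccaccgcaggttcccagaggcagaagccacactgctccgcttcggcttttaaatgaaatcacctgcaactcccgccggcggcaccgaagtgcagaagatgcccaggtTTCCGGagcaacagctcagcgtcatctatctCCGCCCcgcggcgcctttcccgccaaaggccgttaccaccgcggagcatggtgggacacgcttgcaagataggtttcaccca
Snrpe, chr1:133610281-133610530, minus strand: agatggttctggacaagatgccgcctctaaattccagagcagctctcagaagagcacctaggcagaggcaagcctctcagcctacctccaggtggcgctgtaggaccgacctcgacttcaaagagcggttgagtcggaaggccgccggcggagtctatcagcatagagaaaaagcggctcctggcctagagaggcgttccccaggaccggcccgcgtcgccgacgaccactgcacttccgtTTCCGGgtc
Sf3b2, chr19:5295458-5295707, minus strand: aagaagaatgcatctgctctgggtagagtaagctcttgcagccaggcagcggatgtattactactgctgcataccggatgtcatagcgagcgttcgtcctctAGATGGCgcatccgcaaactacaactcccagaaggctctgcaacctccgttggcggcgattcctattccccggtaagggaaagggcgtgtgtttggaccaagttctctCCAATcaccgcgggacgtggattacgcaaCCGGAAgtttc
All 8 are rich in CpG, with 17 CpG sites in the Sf3b2 sequence and 39 in that of Hnrnpd. Of the 15 wild-type peaks counted for these genes, 6 fell within the 250 bases shown.

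Of the 11 SR protein genes, 7 were counted in wild-type HSC (63.6%, 35.4 to 84.8) and 4 in wild-type MEP (36.4%, 15.2 to 64.6). The 4 in MEP, Srsf1, Srsf2, Srsf3 and Srsf7, were all among the 7 in HSC. Srsf4, Srsf5 and Srsf10 were counted in HSC alone. Values given for wild-type peaks are the authors' −log10 values per peak, which set the order of peaks within 1 list and are not compared between lists.

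Srsf2, which encodes the exonic enhancer-binding protein SC35, had a pair of HSC summits on chromosome 11. The one at 116853557 had a value of 11.3 and ranked 136 of 1876, and the one at 116853100 had 6.64. In MEP the summit at 116853584 had 9.45 and ranked 193 of 898. The upper HSC summit and the MEP summit were 27 bp apart. Both lay more than 400 bp upstream of the RefSeq start, at 463 and 490 bp, but inside the annotated gene, and the lower HSC summit lay 6 bp upstream of that start.

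Srsf1 encodes SF2/ASF, a prototype SR protein. Its HSC summit (chromosome 11, position 88047529) had a value of 3.68 and ranked 1430 of 1876. Its MEP summit (88047415) had 16.8 and ranked 111 of 898, the highest MEP value of the 115 genes. The summits were 114 bp apart, at 156 and 42 bp downstream of the RefSeq start. Srsf1 was therefore below the median of the HSC list and well above that of the MEP list.

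Srsf3, whose product also links splicing to mRNA export, had summits 69 bp downstream of its start in HSC (chromosome 17, 29032729, value 8.31) and 27 bp upstream in MEP (29032633, 6.3). Srsf7, another shuttling SR protein, had them 84 bp downstream in HSC (chromosome 17, 80207221, 8.02) and 235 bp downstream in MEP (80207070, 3.32). Both summits lay inside Srsf7. They also count for Gemin6, of the SMN complex that assembles snRNPs, because the lower-coordinate edge of its annotated extent was 283 and 434 bp away.

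Of the SR protein genes found in HSC alone, Srsf4 had a summit 51 bp upstream of a RefSeq start with a value of 7.55. Srsf5 had summits 29 and 571 bp downstream, with 6.87 and 5.78. Srsf10, whose product represses splicing when dephosphorylated, had one 32 bp upstream with 5.99. All 4 of these peaks lay above the HSC list's median of 5.27. The other 4 genes, Srsf6, Srsf9, Srsf11 and Srsf12, had no HSC peak closer than 63.8 kb (Srsf11).

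**Figure D1:**
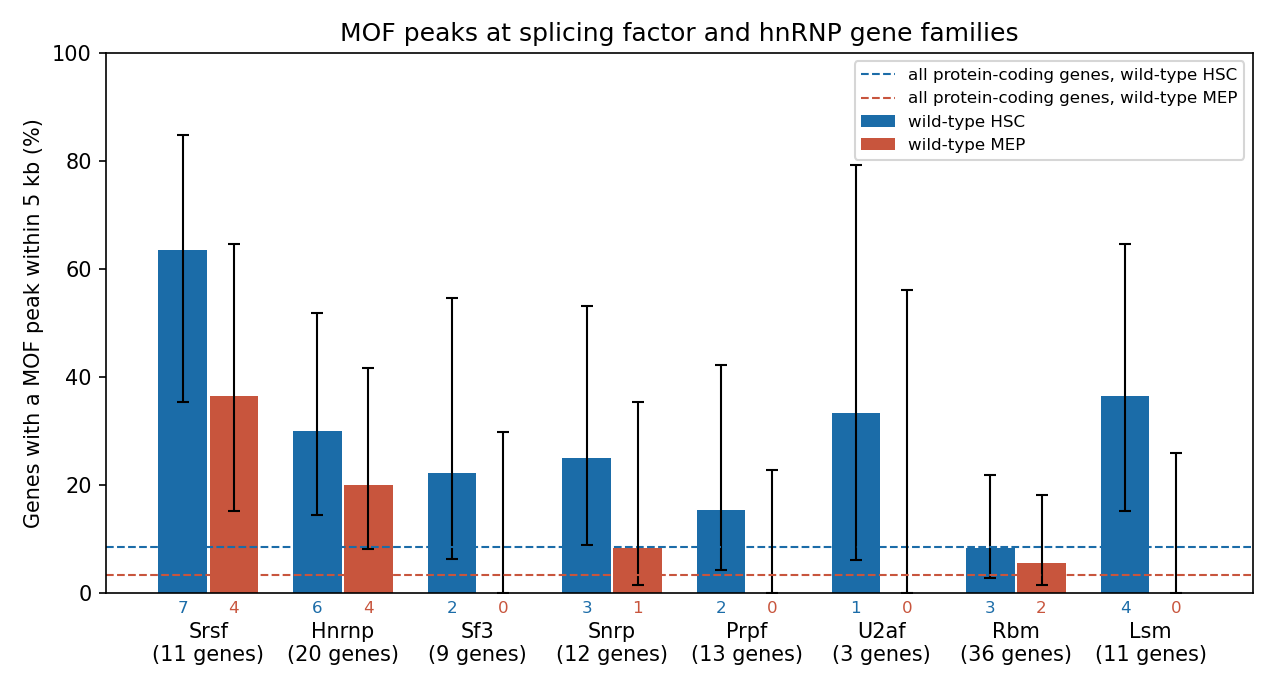
Share of genes with a MOF peak within 5 kb of a start or end, by family, in wild-type HSC (blue) and wild-type MEP (red); bars are percentages with 95% Wilson intervals, the coloured digits are numbers of genes, and dashed lines are the shares of all protein-coding genes (8.52% and 3.4%). Srsf genes reached 63.6% and 36.4%, whereas Rbm genes, at 8.33% and 5.56%, lay near the dashed lines.

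Among hnRNP genes 6 of 20 were counted in HSC (30.0%, 14.5 to 51.9) and 4 of 20 in MEP (20%, 8.07 to 41.6), with Hnrnpu, Hnrnph3 and Hnrnpd in both. Hnrnpu encodes the nuclear scaffold protein SAF-A. Its peak was the third highest value among the genes in HSC (10.5, chromosome 1, 178318958) and the second highest in MEP (11.3, 178318867). It did not lie at the Hnrnpu promoter but 2150 and 2241 bp beyond the 3′ end. It was nearer to the start side of the annotated Cox20 gene, at 863 and 772 bp. Cox20 encodes an assembly factor of cytochrome c oxidase.

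Hnrnph3 had summits 317 bp upstream of its RefSeq start in HSC (chromosome 10, 63024166, 8.3) and 208 bp upstream in MEP (63024057, 6.8). These lay 113 and 4 bp from the start side of the annotated neighbouring gene Pbld2. Hnrnpd encodes AUF1, which binds AU-rich elements of mRNA, and had values of 3.75 in HSC (chromosome 5, 99979255) and 1.54 in MEP (99979006). The MEP value ranked 895 of 898, close to the authors' cut-off, and the summits were 249 bp apart.

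The remaining hnRNP genes were found in 1 cell type. In HSC these were Hnrnpul1 (5.18), Hnrnpa3 (4.19) and Hnrnpm (3.18), all below the list's median. In MEP it was Hnrnpa2b1 (chromosome 6, 51460830, 4.69), with a summit inside the gene and 396 bp from its 3′ end, 9015 bp from its start. Hnrnpk, Hnrnpc and Hnrnpl, which encode abundant core hnRNP proteins, were counted in no list.

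Of the 12 Snrp genes, Snrpe (10.7), Snrpd1 (7.61) and Snrpc (3.06) were counted in HSC and Snrpd2 (6.29) in MEP. SNRPE, SNRPD1 and SNRPD2 are Sm ring proteins shared by the spliceosomal snRNPs, and SNRPC belongs to U1. The HSC summit of Snrpe lay 48 bp upstream of the start (chromosome 1, 133610328). Snrpd2 was the single Snrp gene in MEP (8.33%, 1.49 to 35.4), an interval that includes the background of 3.4%. No Snrp gene was in both lists, and that interval, 0 to 24.2%, likewise includes the background of 1.52%. The interval of the HSC share, 8.89 to 53.2%, lay just above the background of 8.52%.

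Of the 9 Sf3 genes, which encode the SF3A and SF3B parts of the U2 snRNP, Sf3b2 and Sf3b1 were counted in HSC and none in MEP. The HSC share was 22.2% (6.32 to 54.7), an interval that includes the background of 8.52%. The MEP interval of 0 to 29.9% likewise includes the background of 3.4%. Sf3b2 had a value of 10.2 with its summit 65 bp upstream of the start (chromosome 19, 5295522). Sf3b1, which contacts the branch point, had 2.58 and ranked 1680 of 1876, 58 bp downstream (chromosome 1, 55027420). The large U2AF subunit gene U2af2, whose product recognises the polypyrimidine tract, had an HSC value of 8.0. Its summit lay 1691 bp inside the lower-coordinate end of the gene. U2af1 and U2af1l4 were counted in no list, so the HSC share was 1 of 3 (33.3%, 6.15 to 79.2).

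Of the 13 Prpf genes, HSC had Prpf6 (4.69), a tri-snRNP bridging protein, and Prpf19 (2.41), the ubiquitin ligase that names the Prp19 complex. Their summits lay 65 bp upstream and 62 bp downstream of the starts, and MEP had none. The HSC share was 15.4% (4.33 to 42.2), an interval that includes the background of 8.52%. The MEP interval of 0 to 22.8% likewise includes the background of 3.4%. Of the 11 Lsm genes 4 were counted in HSC (36.4%, 15.2 to 64.6) and 0 in MEP (0 to 25.9%, background 3.4%). The products of Lsm2 (8.4), Lsm3 (6.14) and Lsm8 (1.89) belong to the ring that binds U6 RNA. That of Lsm11 (3.61) belongs to the U7 snRNP, which processes histone pre-mRNA. The Lsm3 summit was 67 bp upstream of its start and 80 bp from an end of the DNA repair gene Xpc.

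Rbm genes, a family defined by an RNA recognition motif and holding many non-spliceosomal proteins, were near background. In HSC 3 of 36 were counted (8.33%), namely Rbm18 (3.9), Rbm4b (3.02), whose product is a splicing regulator, and Rbm14 (2.58), which encodes a paraspeckle protein. In MEP 2 were counted (5.56%). Rbm15b, of the m6A methyltransferase complex, had 4.24 with a summit 189 bp upstream of its start. Rbm34 had 6.12 but at 1366 bp from its 3′ end and 115 bp from the start side of the annotated Tomm20 gene. No Rbm gene was in both lists (0 to 9.64%, background 1.52%).

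**Figure D2:**
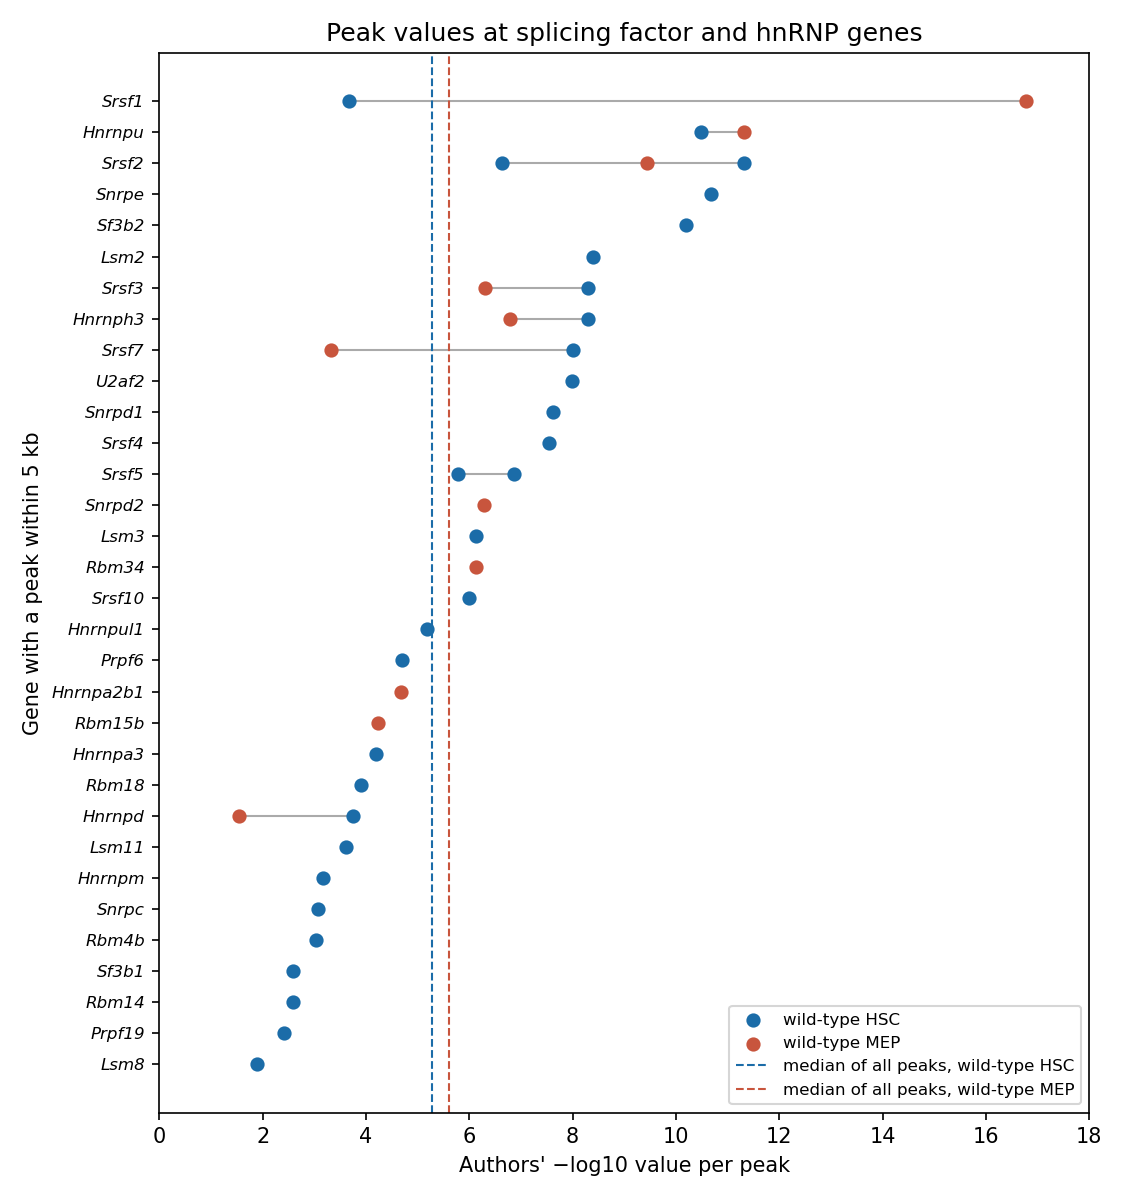
The authors' −log10 value of each MOF peak within 5 kb of a splicing factor or hnRNP gene, in wild-type HSC (blue) and wild-type MEP (red), 1 row per gene; grey lines join peaks of 1 gene and dashed lines are the medians of all peaks in each list (5.27 and 5.61). Srsf1 has the highest MEP value (16.8) and a low HSC value (3.68), and values are not on a common scale between lists.

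Without the Rbm and Lsm families, 21 of 68 genes were counted in HSC (30.9%, 21.2 to 42.6) and 9 of 68 in MEP (13.2%, 7.12 to 23.3). The corresponding counts of the Rbm and Lsm genes were 7 of 47 (14.9%) and 2 of 47 (4.26%). This pool mixes unlike families in HSC, with Lsm at 4 of 11 (36.4%) and Rbm at 3 of 36 (8.33%). In MEP they had 0 of 11 and 2 of 36 (5.56%), against a background of 3.4%.

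Across the families, 7 genes were counted in both wild-type lists, 21 in HSC alone and 4 in MEP alone. The background was 1.52% of protein-coding genes in both lists, 7.0% in HSC alone and 1.88% in MEP alone, against member shares of 6.09%, 18.3% and 3.48%. The 7 genes were 25% of the members found in HSC and 63.6% of those in MEP. Over all protein-coding genes the 333 in both lists were 17.9% of the HSC genes and 44.7% of the MEP genes. At each of the 7 genes the HSC and MEP summits, extended by 150 bp on each side, overlapped. Their distances ran from 27 to 249 bp with a median of 109 bp. Over all genes the extended summits overlapped at 280 of 333, with a median distance of 73.5 bp.

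The HSC list was the longer one, which bears on every comparison of counts. With only its 898 highest peaks, the length of the MEP list, 14 genes were counted in HSC (12.2%, against 4.19% of all protein-coding genes) beside 11 in MEP, and 5 were in both. By family these were 6 Srsf, 2 Hnrnp, 2 Snrp, 2 Lsm, 1 Sf3 and 1 U2af gene, with 0 Prpf and 0 Rbm. The corresponding MEP counts were 4 Srsf, 4 Hnrnp, 1 Snrp and 2 Rbm genes and 0 of the other families. At equal length the Hnrnp and Rbm counts were thus lower in HSC than in MEP. The Srsf, Snrp, Lsm, Sf3 and U2af counts were higher in HSC, and Prpf had 0 in each. The shares of all protein-coding genes were 4.19% in the shortened HSC list and 3.4% in MEP. These differences of a few genes were not tested.

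The 30 HSC peaks had values from 1.89 to 11.3 with a median of 5.88, and the 1368 HSC peaks near any protein-coding gene had a median of 5.25. The 11 MEP peaks ran from 1.54 to 16.8 with a median of 6.29, against 5.23 for 525 peaks. Above the median of the whole list lay 16 of 30 in HSC (53.3%) and 7 of 11 in MEP (63.6%), against 49.7% and 43.2% of the peaks near any protein-coding gene.

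Most of the peaks were close to an annotated gene end, mainly the start, and in MEP no more so than those of all genes. In HSC the distance to the nearer annotated end had a median of 80.0 bp, and 24 of 30 peaks (80.0%) lay within 200 bp, against 62.1% of the peaks near any protein-coding gene. In MEP the median was 189 bp, against 186 bp for the peaks near any protein-coding gene, and 6 of 11 lay within 200 bp (54.5%, and 54.5% for all). Strand was known for 97 of the 115 genes from the RefSeq promoter table. Among gene-peak pairs with a strand, 27 of 28 were nearer to the start than to the end in HSC (96.4%, against 79.1% for all genes) and 8 of 11 in MEP (72.7%, against 75.2%). The exception in HSC was Hnrnpu, and those in MEP were Hnrnpu, Rbm34 and Hnrnpa2b1.

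**Figure D3:**
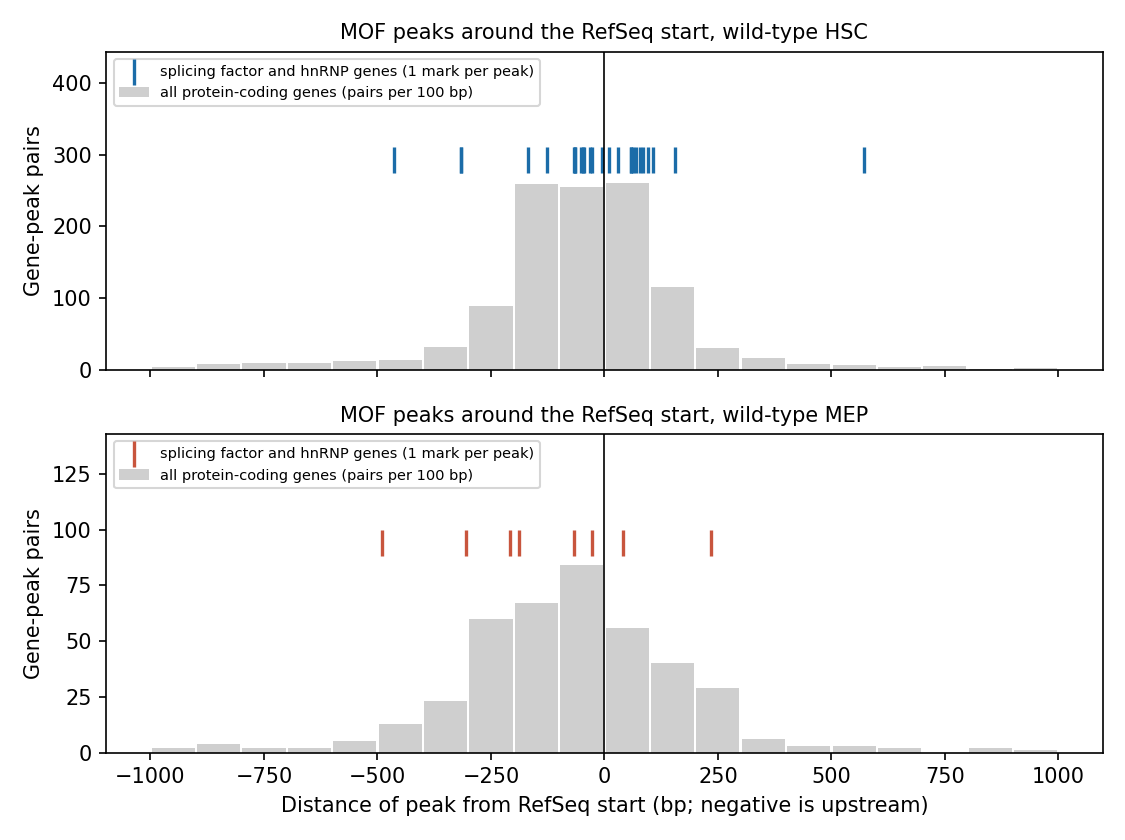
Position of MOF peaks relative to the nearest RefSeq start of the gene (bp, negative is upstream) in wild-type HSC (top) and MEP (bottom); grey bars count gene-peak pairs of all protein-coding genes per 100 bp and coloured ticks, placed above the bars for clarity, are single peaks of splicing factor and hnRNP genes. The HSC ticks run from -463 to 571 bp and crowd around 0, and the 8 MEP ticks run from -490 to 235 bp.

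Within 1 kb of a RefSeq start, 26 HSC peaks had a median position of -16.5 bp, with 12 downstream and 14 upstream. The median over all genes was -46.0 bp. In MEP 2 of 8 were downstream and the median was -128 bp, against -75.5 bp over all genes. The counted genes nearest to the limit of 5 kb were Hnrnpu at 2.15 kb and U2af2 at 1.69 kb in HSC. Just outside it were Rbm15b at 5.19 kb and Snrpg at 5.72 kb in HSC, and Snrpg at 6.07 kb and Lsm1 at 7.3 kb in MEP. Hnrnpf, at 6.57 kb in HSC, missed the limit because its annotated extent begins upstream, although one of its summits (chromosome 6, 117906914, value 8.75) lay 132 bp downstream of an inner RefSeq start.

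Several of these peaks lay near an annotated end of more than 1 gene. Starts and 3′ ends both count here, so shared promoters were not measured. In HSC the neighbour's nearer end was a 3′ end at Hnrnpul1 (Axl, 288 bp) and Lsm11 (Thg1l, 379 bp). It was the start side of the annotated extent at Hnrnph3 (Pbld2, 113 bp), Srsf7 (Gemin6, 283 bp) and Rbm14 (Gm21992, 96 bp). The same held at Hnrnpd (4930524J08Rik, 320 bp) and the lower Srsf2 summit (Mfsd11, 889 bp). For the neighbours of Lsm3 and Hnrnpm the side was not known. In MEP the start side was nearer at Hnrnph3, Srsf7 and Hnrnpd, and the side was not known at Snrpd2. At least 2 protein-coding genes had an annotated end within 1 kb of the peak at 9 of 30 HSC peaks (30.0%) and 4 of 11 MEP peaks (36.4%). The shares over all peaks near protein-coding genes were 16.7% and 20.2%. When a peak was given only to the gene with the nearest end, 26 genes remained in HSC, without Hnrnpu and Hnrnph3. In MEP 7 remained, without Hnrnpu, Hnrnph3, Hnrnpd and Rbm34, and only the 4 SR protein genes then stayed in both lists.

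Members with a wild-type peak had slightly higher median promoter GC and CpG than members without one, with overlapping ranges. The difference was not tested. Members were split by a peak within 5 kb of either gene end, not by a peak at the measured promoter. Those with a peak include Hnrnpu, Rbm34 and Hnrnpa2b1, whose MEP peaks lay near their 3′ ends. Those without one include Hnrnpf, whose HSC summits lay near inner starts. The motif counts below use the same split. In the 300 bases from 250 before to 50 after the start, the median GC content was 63.0% in the 30 genes with a wild-type peak and 59.0% in the 67 without one, against 56.3% over 17492 protein-coding genes. The median ratio of observed to expected CpG was 0.948, 0.896 and 0.564. All protein-coding genes with a wild-type peak had medians of 61.7% and 0.804. Among 7081 genes with a CpG-rich promoter (GC of at least 55% and a ratio of at least 0.6), 15.1% were counted in HSC and 5.28% in MEP. Of the 73 CpG-rich members, 24 were counted in HSC (32.9%) and 11 in MEP (15.1%). The member share was thus 2.17 times that of CpG-rich genes in HSC and 2.85 times in MEP.

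**Figure D4:**
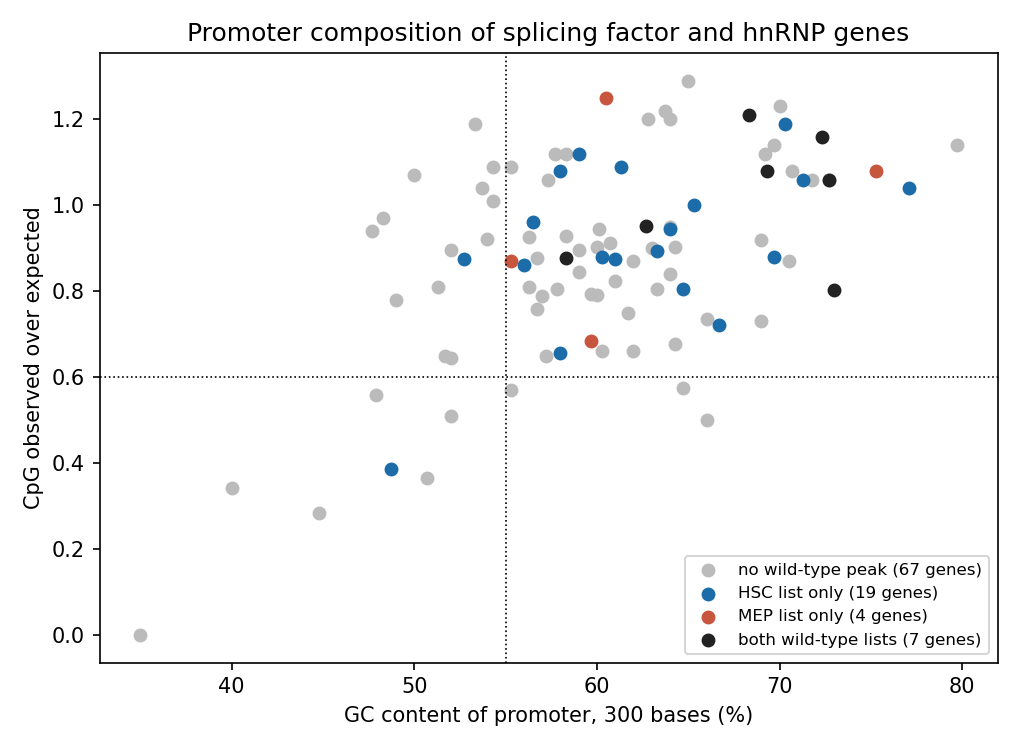
GC content (%) against the ratio of observed to expected CpG of the promoters of 97 splicing factor and hnRNP genes, coloured by the wild-type lists that hold them; dotted lines are the limits of 55% and 0.6. Genes in both lists (black, 7) all fall in the upper right field, together with most genes without a peak (grey, 67).

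Motifs were searched on both strands of the 250 bases before each start, and no motif contains another. The GC box (GGGCGG) occurred in 21 of the 30 genes with a wild-type peak (70.0%), in 53.7% of the members without one, in 77.2% of CpG-rich promoters and in 45.8% of all. The ETS-family letters CCGGAA occurred in 14 of 30 (46.7%), in 35.8% of members without a peak, in 27.2% of CpG-rich promoters and in 17.0% of all. The CCAAT box occurred in 11 of 30 (36.7%), 50.7% of members without a peak, 37.5% of CpG-rich promoters and 39.5% of all. The TATA box (TATAAA) occurred in 3 of 30 (10.0%), with 11.9%, 4.36% and 13.7% in the same order. The letters GCGCATG of NRF1 sites occurred in 4 of 30 (13.3%), with 5.97%, 7.61% and 4.51%. The YY1 letters AGATGGC occurred in 2 of 30 (6.67%), with 4.48%, 4.7% and 4.59%, and the E-box CACGTG in 3 of 30 (10.0%), with 11.9%, 11.1% and 7.61%. The GATA letters AGATAA occurred in 0 of 30, with 8.96%, 3.56% and 10.3%, and TGATAA in 1 of 30 (3.33%), with 8.96%, 2.43% and 8.09%. In the sequences shown, Srsf2 and Srsf3 carry both a CCAAT box and a TATA box, and 6 of the 8, all but Srsf3 and Hnrnph3, carry the ETS letters. A match describes letters and not an occupied site.

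In Mof -/+ cells and for GATA1 these genes were almost bare of peaks, in lists that were short overall. In Mof -/+ HSC 1 of 115 was counted (0.87%), near the background of 0.567%. In Mof -/+ MEP 0 were counted, with a background of 0.0366%, and the GATA1 list held 0, with 0.603%. None of the 28 genes of wild-type HSC was counted in Mof -/+ HSC, where 64 of the 1865 wild-type HSC genes were (3.43%). None of the 11 genes of wild-type MEP was counted in Mof -/+ MEP, against 4 of 745 genes (0.537%). Shares this low leave less than 1 gene for a set of this size, so a loss particular to these genes was not detectable. The lists also differ in layout and length, and genotype and library cannot be told apart.

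The gene in Mof -/+ HSC was Rbm39, which encodes a splicing factor related to U2AF65. Its interval (chromosome 2, 156180110 to 156180328) spanned 219 bp, with its midpoint 19 bp downstream of the start. The authors gave it a fold enrichment of 4.61 and a −log10 q of 2.62, rank 317 of 338, so it was among the weakest of that list. Rbm39 had no peak nearer than 629 kb in wild-type HSC and 16.6 kb in wild-type MEP. The nearest GATA1 interval to any of the 115 genes lay 61.1 kb away, from Rbm7.

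A further 139 splicing genes that the symbol rule does not match gave shares close to those of the 115. The 139 were listed with earlier results of these data known, so the closeness is not an independent check. In HSC 34 were counted (24.5%, 18.1 to 32.2, background 8.52%), in MEP 13 (9.35%, 5.55 to 15.3, background 3.4%), and 6 in both (4.32%, background 1.52%). By group, the HSC and MEP counts were 13 and 5 of 37 other hnRNP-like and regulatory RNA-binding proteins (35.1% and 13.5%). They were 5 and 5 of 33 snRNP proteins with other symbols (15.2% each). Proteins of the catalytic steps and the Prp19 complex had 7 and 0 of 25 (28.0% and 0.0%). That MEP interval, 0 to 13.3%, includes the background of 3.4%. SR-related proteins and kinases had 3 and 1 of 19 (15.8% and 5.26%). Exon junction and export adaptors had 3 and 1 of 16 (18.8% and 6.25%). Genes of the SMN complex and coilin had 3 and 1 of 9 (33.3% and 11.1%).

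Among the genes in both lists were Ewsr1, Ddx5, Puf60, Snrnp35 and Gemin6. Ewsr1 encodes an RNA-binding protein that couples transcription to splicing. Ewsr1 had the highest HSC value of the 139 (20.6, rank 19 of 1876) and 6.32 in MEP, with summits at 5099223 and 5099230 on chromosome 11. Ddx5, an RNA helicase gene, had 3 HSC summits near its start, with values of 6.61, 4.74 and 1.83. The one with 4.74 (chromosome 11, 106788440) overlapped the MEP site at 106788697, which had 12.6. Another HSC summit, with 7.34, lay 902 bp from the 3′ end of Ddx5 and 84 bp from an end of Polg2.

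Puf60, a U2AF-related factor gene, had 7.16 and 4.35, but its peaks were nearer to Scrib (93 and 122 bp). Snrnp35, of the minor spliceosome, had 7.8 and 5.29, and Gemin6 shared the Srsf7 peaks. The next highest in HSC were Scaf11 (18.6), Cwc25 (18.1, nearer to Pip4k2b), Bud31 (13.0) and Ddx20 (11.8). In MEP they were Pcbp2 (11.2), Eif4a3 (10.8), which encodes the exon junction helicase, and Phf5a (6.81, 390 bp from its upper-coordinate end). In Mof -/+ HSC 2 of the 139 were counted (1.44%, background 0.567%), Ppil1 and Cdc5l. The GATA1 list held 2 (1.44%, background 0.603%), Puf60 and Dhx16, and Mof -/+ MEP held 0.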

How the data were processed

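Peaks came from 5 of the 12 samples. Not analysed here were 6 input libraries and H4K16ac in HPC7. Per the submitters' processing notes, the build was mm10 and the tools included MACS2, deepTools and Bowtie2 2.3.0.1. Their settings, any filters and the pairing of inputs are not stated there. The deposited wild-type lists hold summits of 1 bp with a −log10 value without a header, read as −log10 q because its minimum lies just above 1.3. The deposited Mof -/+ lists hold intervals, each with a score (10 times −log10 q without decimals), the authors' fold over background, a −log10 p, a −log10 q and a summit offset. The deposited GATA1 intervals have no value and were ranked by width.

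Genes came from RefSeq GRCm38.p6, and strand and promoter sequence from its promoter table (97 of 115 members). Distances ran from a peak's midpoint to a gene's annotated start or end. The window was 5 kb, and overlaps of extended summits needed 1 bp. Python 3.11.15, pandas 2.3.3 and scipy 1.17.1 were used, and gene assignment was tested on simulated data. With 1 library per group no test was made. Depth per library is not known, and Wilson intervals cover counting error only.

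Members, lists and motifs were chosen with earlier results of these data known. Every member with a peak was named. Among other splicing genes, those in both wild-type lists and the 5 highest of each were named, except for an item that is not reported here, and the remaining ones named were chosen after their values were seen. Hnrnpf, named for an inner start, and the comparison with CpG-rich promoters were also chosen after the data were seen. The alternatives tried were other windows, peak thresholds, assignments, memberships and list lengths.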

Additional observations from a re-analysis of the deposited data

How the results depend on the processing

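The counts in wild-type HSC (28), wild-type MEP (11) and both (7) stayed within 1.5 times under a window of 1 kb, any overlapping base, gene starts only, gene bodies included, the Rbm and Lsm families left out, and removal of peaks found in 4 or 5 lists. With a window of 20 kb the MEP count was 17 and the Mof -/+ HSC count 2. With only peaks above the median of their list the counts were 14 in HSC, 7 in MEP, 4 in both and 0 in Mof -/+ HSC, as fewer peaks are left by construction. With each peak given only to the nearest gene, MEP had 7 and both lists 4. Without Rbm and Lsm genes Mof -/+ HSC had 0, since Rbm39 is an Rbm gene. With the HSC list at the length of the MEP list, HSC had 14. The 7 overlapping sites stayed 7 with summits extended by 500 bp and were 5 when an overlap of 0.5 of the interval was required. In each of these settings the members' share in both wild-type lists was above that of all protein-coding genes.

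Per-library depth is unknown, and the number of peaks sets how many genes can be counted. No paired analysis was possible because each list came from 1 library and the groups compared share no replicate numbers beyond it.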

Other observations

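Of the members with no peak within 5 kb of an annotated end, 1 in each wild-type list carried peaks farther inside the gene. Hnrnpf had HSC summits at 117906914 (value 8.75, rank 303 of 1876) and 117917048 (4.58, rank 1145) on chromosome 6. They lay 132 bp downstream and 246 bp upstream of separate inner RefSeq starts of the gene, whose annotation runs from 117900340 to 117925622. Lsm1, of the cytoplasmic Lsm ring that acts in mRNA decay, had a MEP summit at 25792614 on chromosome 8 (4.86, rank 553 of 898), 7296 bp from the nearer end of the gene. Counting gene bodies gave 29 members in HSC and 12 in MEP.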
